A study of Mus musculus with 4 samples.

Results

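The cells described here are the macrophages found in cultures of mouse mammary gland organoids, which were grown from fat pads of virgin females aged 8 to 9 weeks after the lymph nodes had been removed. They were chosen by their own counts, so the genes of the rule are a description and not a finding. A cell needed at least 3000 gene UMIs (unique molecular identifiers, each standing for 1 captured RNA molecule) and at most 15% mitochondrial UMIs. Per 10000 UMIs it needed at least 10 from C1qa, C1qb, C1qc, Tyrobp and Fcer1g together, under 20 from the luminal keratins Krt8 and Krt18, under 5 from the basal keratins Krt5 and Krt14, and under 10 from the collagens Col1a1, Col1a2 and Col3a1. This rule took 685 of 15344 kept cells.

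Organoids were kept under 4 conditions, collagen (COL1), stiff (STIFF), Matrigel (MATR) and soft (SOFT), with 1 culture each. What the soft and stiff matrices were made of is not given in the labels used here, nor is the mouse strain or the number of animals. Cells were marked with hashtag antibodies and run as 2 pools on a droplet device that reads RNA from its 3′ end. One pool held COL1 and STIFF and is labelled stiff, and the other held MATR and SOFT and is labelled soft. The pools differ in every step after mixing, so pool, device channel and matrix pair cannot be told apart. No condition was repeated, so no difference below has a replicate check or a test. Intervals are exact 95% intervals and cover counting error only. The tag that belongs to each culture is read only from the names of the deposited matrices. Exchanging the tags of a pool would turn its COL1 over STIFF or MATR over SOFT ratio round.

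Macrophages are phagocytes that clear dying cells and debris, take up lipid and present antigen. In the mammary gland they lie along ducts and in the stroma, and they take part in duct growth and in the remodelling of the tissue. They sense damage and microbes through pathways that end in the transcription factor NF-kappaB, which drives chemokine and cytokine genes, and stable tissue-resident cells are known for scavenger receptors such as Mrc1.

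The cells were few but deeply sequenced. The COL1 and STIFF pool held 309 macrophages among 7668 kept cells (4.03%, 3.60 to 4.49), and the MATR and SOFT pool held 376 among 7676 (4.90%, 4.43 to 5.41). Their median depth was 13753 UMIs in the COL1 and STIFF pool and 15280 in the MATR and SOFT pool, near the medians of 12187.5 and 12921 UMIs over all kept cells. Their counts summed to 4962231 UMIs in the COL1 and STIFF pool and to 6623280 in the MATR and SOFT pool. The pools shared 22 cell barcodes, and 0 of these belonged to macrophages.

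The lower bound on the macrophage genes separated cells cleanly, whereas the keratin bound did not. For the sum of C1q genes, Tyrobp and Fcer1g, the lowest cell inside had 12.2 and the highest outside 9.45 per 10000 UMIs in the COL1 and STIFF pool, against 19.9 and 7.18 in the MATR and SOFT pool, while the macrophage medians were 176 and 177. For Krt8 and Krt18 the nearest cells lay at 19.9 inside and 20.4 outside in the COL1 and STIFF pool, and at 19.8 and 20.2 in the MATR and SOFT pool. This bound alone left out 144 cells of the COL1 and STIFF pool and 65 of the MATR and SOFT pool. For Krt5 and Krt14 the nearest values were 4.94 inside and 5.76 outside in the COL1 and STIFF pool, against 4.64 and 5.03 in the MATR and SOFT pool. For the collagens they were 5.52 and 19.4, against 5.48 and 39.2. A further 69 and 39 cells met all sums with under 3000 UMIs.

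Genes that the rule did not use fitted the label. Levels are given as CPM, counts per 1e6 UMIs summed over the cells of a group, and shares of cells after every cell was thinned to 3000 UMIs. Lyz2, the macrophage lysozyme, stood at 32106 CPM in the COL1 and STIFF pool and 32344 CPM in the MATR and SOFT pool, although its near-identical copy Lyz1 can share its reads. The pan-leukocyte phosphatase Ptprc stood at 204 and 195 CPM, and Csf1r, the receptor for the growth factor CSF1 that macrophages need to survive, at 330.1 and 348 CPM. After thinning, a Ptprc UMI was found in 46.3% and 44.9% of macrophages, against 0.079% and 0.0771% of luminal-keratin cells (at least 50 Krt8 and Krt18 UMIs per 10000), whose median depths were 12782 and 13807 UMIs. For Csf1r the shares were 64.1% and 62.5% of macrophages against 0.593% and 0.231% of luminal-keratin cells. Lyz2 and the lipid carrier Apoe were less exclusive by cell, with a UMI in 20.3% and 21.9% of luminal-keratin cells for Lyz2 and in 27.1% and 24.5% for Apoe. Even so, macrophages held 72.0% of all Lyz2 UMIs of kept cells and 77.6% of those of Ptprc.

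The 20 genes that most set macrophages above the other kept cells held the 5 genes of the rule. They also included the chemokines Cxcl2, Ccl3, Ccl4, Ccl6 and Pf4, the cytokine Il1b, the lipid carriers Apoe and Apoc2, the protease Ctss and the invariant chain Cd74. Macrophages held 72.7% of all Cxcl2 UMIs, 73.0% of those of Il1b and 75.5% of those of Pf4, so that a small class of cells was the main measured source of these messengers in the cultures. Mmp9 was less restricted, with 49.4% of its UMIs in macrophages, and Selenop less still, with 29.9%.

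Markers of lymphocytes and dendritic cells were near 0. Lists for T and natural killer cells summed to 0.6 CPM in the COL1 and STIFF pool and 1.7 CPM in the MATR and SOFT pool, those for B cells to 4.2 and 1.8 CPM, and those for dendritic cells to 9.9 and 6.3 CPM. The neutrophil list reached 56 and 120 CPM, most of it S100a8 and the collagenase Mmp8, which monocyte-derived cells also express. Higher than these was the monocyte list, at 208 CPM in the COL1 and STIFF pool and 199 CPM in the MATR and SOFT pool. All 8 adipocyte markers were at 0. Luminal markers were not: the pan-luminal list summed to 1613 CPM in the COL1 and STIFF pool and 1166 CPM in the MATR and SOFT pool, and the list for hormone-receptor-negative luminal cells to 2024 and 1949 CPM. Osteopontin (Spp1), often named as a macrophage gene, was no marker here, since macrophages held only 4.03% of its UMIs.

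Macrophages carried far more hashtag than the other cells. Their median count of both tags together was 4704 in the COL1 and STIFF pool and 5403 in the MATR and SOFT pool, against 1013 and 877.5 in the other kept cells. Relative to depth the difference was as plain, with 339 and 357 tag counts per 1000 gene UMIs in macrophages against 83.3 and 65.5 in the others. By their tag counts 91.9% (88.3 to 94.7) and 94.1% (91.3 to 96.3) of macrophages were assigned to 1 condition, against 48.8% and 52.9% of the other kept cells. Both tags were seen in 4.53% and 5.59% of macrophages. No tag was seen in 3.56% of macrophages in the COL1 and STIFF pool. In the MATR and SOFT pool 0 of 376 were called without a tag, for which 3 counts give a limit of 0.798%, and 1 of the 376 fell below the filter for tag calls.

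**Figure D1:**
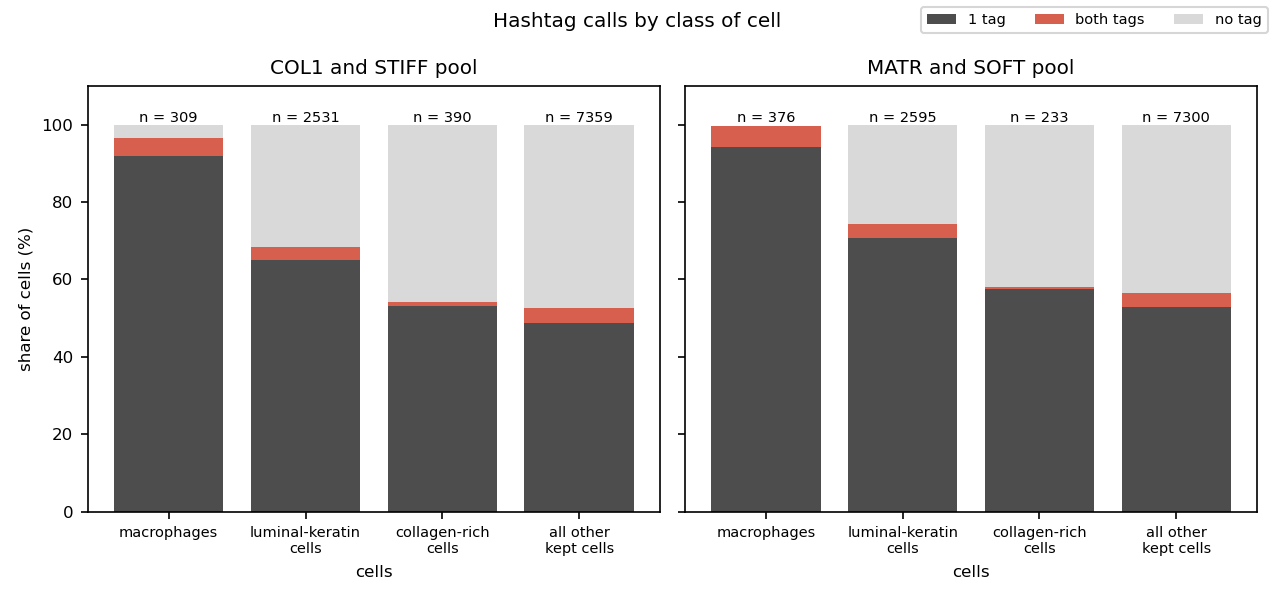
Share of cells (%) with 1 hashtag, both or none, for macrophages, luminal-keratin cells, collagen-rich cells (at least 50 collagen UMIs per 10000) and all other kept cells of each pool, with the number of cells above each bar. Single tags reach 91.9% and 94.1% of macrophages but 48.8% and 52.9% of all other kept cells.

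By tag there were 125 macrophages from COL1, 159 from STIFF, 121 from MATR and 233 from SOFT. Among singly tagged cells, COL1 had a macrophage share of 8.63% (7.24 to 10.2), STIFF one of 6.55% (5.59 to 7.60), MATR one of 5.26% (4.38 to 6.25) and SOFT one of 12.1% (10.7 to 13.7). By these calls SOFT had the largest share and MATR the smallest, and these are the cultures of 1 pool. The shares are of tagged cells, and since macrophages were tagged more often than others, they stand above the shares of all kept cells. They also depend on the tag rule, since no tag was called in 47.3% and 43.6% of the other kept cells. A relative rule gave the tag that stood at least 2-fold above the other, each over its median. It counted 129, 161, 122 and 232 macrophages for COL1, STIFF, MATR and SOFT, against 1924, 3618, 3053 and 3246 other kept cells. The main calls gave 1323, 2270, 2180 and 1685 other kept cells. Under the relative rule the shares of SOFT and COL1 thus lay close together, so the lead of SOFT over COL1 depends on the tag rule. Summed depth was 1839952 UMIs for COL1, 2611620 for STIFF, 1848425 for MATR and 4136372 for SOFT.

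The promoters of 2 gene groups are shown here because these groups are followed through the results. The first holds the neutrophil chemokines Cxcl1, Cxcl2 and Cxcl3, neighbours on chromosome 5. The 120 bases before each start (RefSeq, GRCm38.p6, 5′ to 3′) follow at chr5:90891125-90891244, chr5:90903779-90903898 and chr5:90785981-90786100, all on the plus strand, with capitals for matches on either strand to GGG, 2 bases of any kind and TTTCC, a form of the site bound by NF-kappaB.
Cxcl1: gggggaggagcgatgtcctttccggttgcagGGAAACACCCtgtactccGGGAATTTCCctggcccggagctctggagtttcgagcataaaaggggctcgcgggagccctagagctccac
Cxcl2: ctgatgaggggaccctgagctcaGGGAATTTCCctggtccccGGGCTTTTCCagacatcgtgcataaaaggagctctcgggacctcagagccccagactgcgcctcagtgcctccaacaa
Cxcl3: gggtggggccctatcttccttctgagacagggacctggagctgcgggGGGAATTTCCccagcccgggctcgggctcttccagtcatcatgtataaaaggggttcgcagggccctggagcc
Cxcl1 and Cxcl2 each hold 2 matches and Cxcl3 holds 1, and windows of this length hold a match for 0.737% of 32851 promoters. Of the 13 listed chemokines with a promoter in the table, 4 had a match, the other being Ccl9.

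The second group holds H2-Aa and H2-Eb1, which encode chains of the MHC class II molecules that show peptides to T cells. Their windows lie at chr17:34287824-34287943 on the minus strand and chr17:34305747-34305866 on the plus strand, with capitals for CTGATTGG, the Y box of class II promoters.
H2-Aa: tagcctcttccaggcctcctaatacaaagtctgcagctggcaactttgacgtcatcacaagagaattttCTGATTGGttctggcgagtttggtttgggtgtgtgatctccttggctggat
H2-Eb1: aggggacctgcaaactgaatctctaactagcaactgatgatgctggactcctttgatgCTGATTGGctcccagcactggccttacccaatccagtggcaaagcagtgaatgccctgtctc
A match on either strand occurs in 2.84% of the promoters and in 3 of the 7 listed class II genes with a promoter in the table, the other being H2-Oa. A match of letters is a description and says nothing of binding in these cells.

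Macrophages of both pools were divided into 7 clusters, whose leading genes are given as a description. Cluster 0 (143 cells) was led by the chemokine Ccl8, the selenium carrier Selenop, the mannose receptor Mrc1, the transcription factor Maf and the growth factor Gas6. Cluster 1 (134 cells) was led by Ctsk, the elastase Mmp12 and the lipoprotein lipase Lpl, and cluster 2 (127 cells) by Cxcl3, Mmp8, the gelatinase Mmp9 and platelet factor 4 (Pf4). Cluster 3 (98 cells) was led by the class II genes H2-Aa, H2-Ab1 and H2-Eb1, and cluster 4 (84 cells) by genes of dividing cells such as Top2a. Leading genes were ranked by summed counts, and some were found in a minority of the cells of their cluster. Without thinning, a Ccl8 UMI was found in 26.6% of cluster 0, Ctsk in 7.46% and Lpl in 29.1% of cluster 1, and H2-Aa in 26.5% of cluster 3. Selenop was found in 98.6% of cluster 0 and Mmp12 in 61.2% of cluster 1. These groups differed widely in a few genes. Selenop stood at 1291 CPM in cluster 0 against 235 to 430 CPM in the other clusters, and Mmp12 at 2207 CPM in cluster 1 against 129 to 628 CPM elsewhere.

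Clusters 5 (54 cells) and 6 (45 cells) were led by luminal genes, Lcn2, Csn3 and Igfbp5 in cluster 5 and the prolactin receptor Prlr, Areg and Krt19 in cluster 6. Luminal markers summed to 16254 CPM in cluster 5 and 9211 CPM in cluster 6, against 762 to 1139 CPM in the other clusters. Of these 99 cells 24.2% carried both tags, against 1.88% of the other macrophages, and their median depth was 24600 UMIs, against 13747 UMIs. They met the keratin bound and were kept, and the levels, gene counts and list counts below were also computed without them, as a choice made after seeing the data. Without them COL1 kept 101 macrophages, STIFF 141, MATR 110 and SOFT 212.

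**Figure D2:**
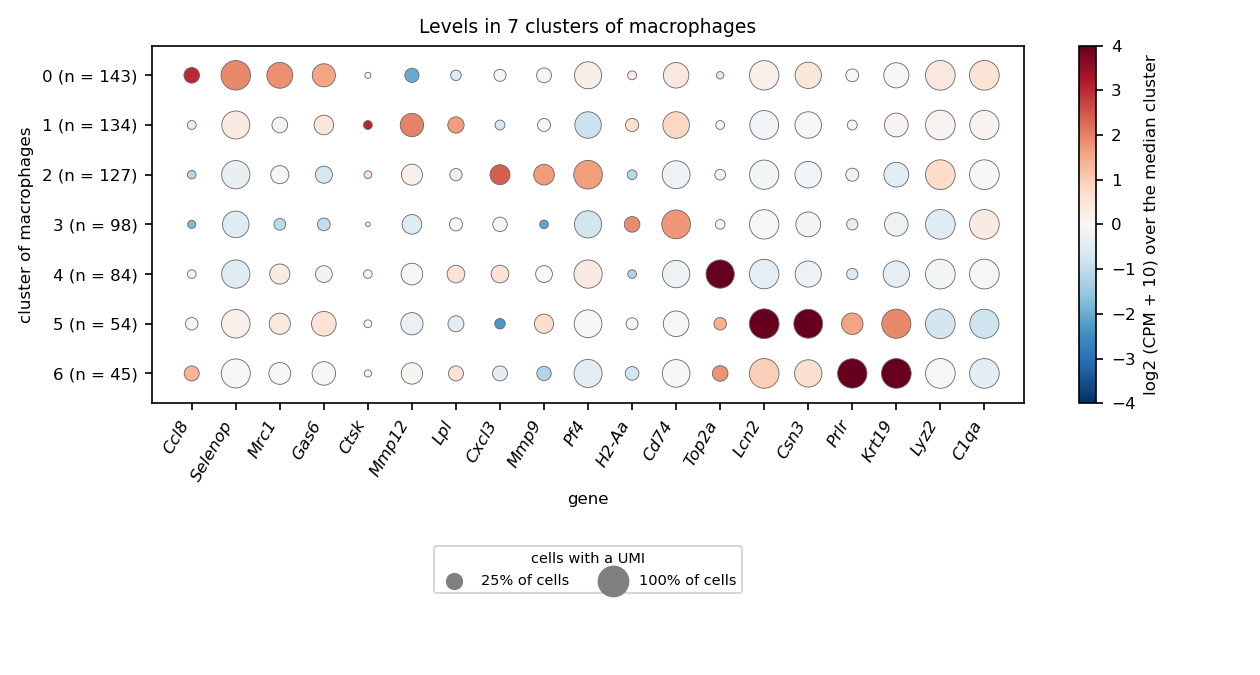
Level of 19 genes in the 7 clusters of macrophages, as colour for the log2 of (CPM + 10) over the median cluster, and share of cells with a UMI as the size of the circle. Clusters 5 and 6 stand apart in Lcn2, Csn3, Prlr and Krt19, and C1qa and Lyz2 are present in all 7.

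Conditions were compared through summed counts. A gene was compared when it had at least 50 UMIs over both groups and at least 20 CPM in 1 of them, and it was counted as higher or lower when it differed by at least 1.5-fold on the log2(CPM + 10) scale. Between the pools 2.01% of 5117 genes were higher and 0.469% lower in the COL1 and STIFF pool. Of the 888 at least 2-fold above the other kept cells 3.49% were higher and 2.14% lower. Here and below, this bound was set only in the group where a gene was higher, against the other kept cells of its pool. Genes that differ pass such a bound more readily, so these shares cannot show that macrophage genes differed more than others. Between the pools 0 of 19 pan-macrophage genes, 0 of 10 complement genes and 0 of 20 lysosomal genes reached 1.5-fold. The complement list includes C1qa, C1qb and C1qc, which the rule used. At the shares over all genes, lists of this size would hold few or none, so these counts do not set these lists apart. Lists of signalling genes held more. Of 10 compared inflammatory cytokine and regulator genes 6 were higher and 0 lower (median log2 ratio 0.70), of 20 immediate early genes 9 were higher and 0 lower (0.53), and of 17 chemokines 4 were higher and 1 lower (0.31). The median over all compared genes was 0.05.

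**Figure D3:**
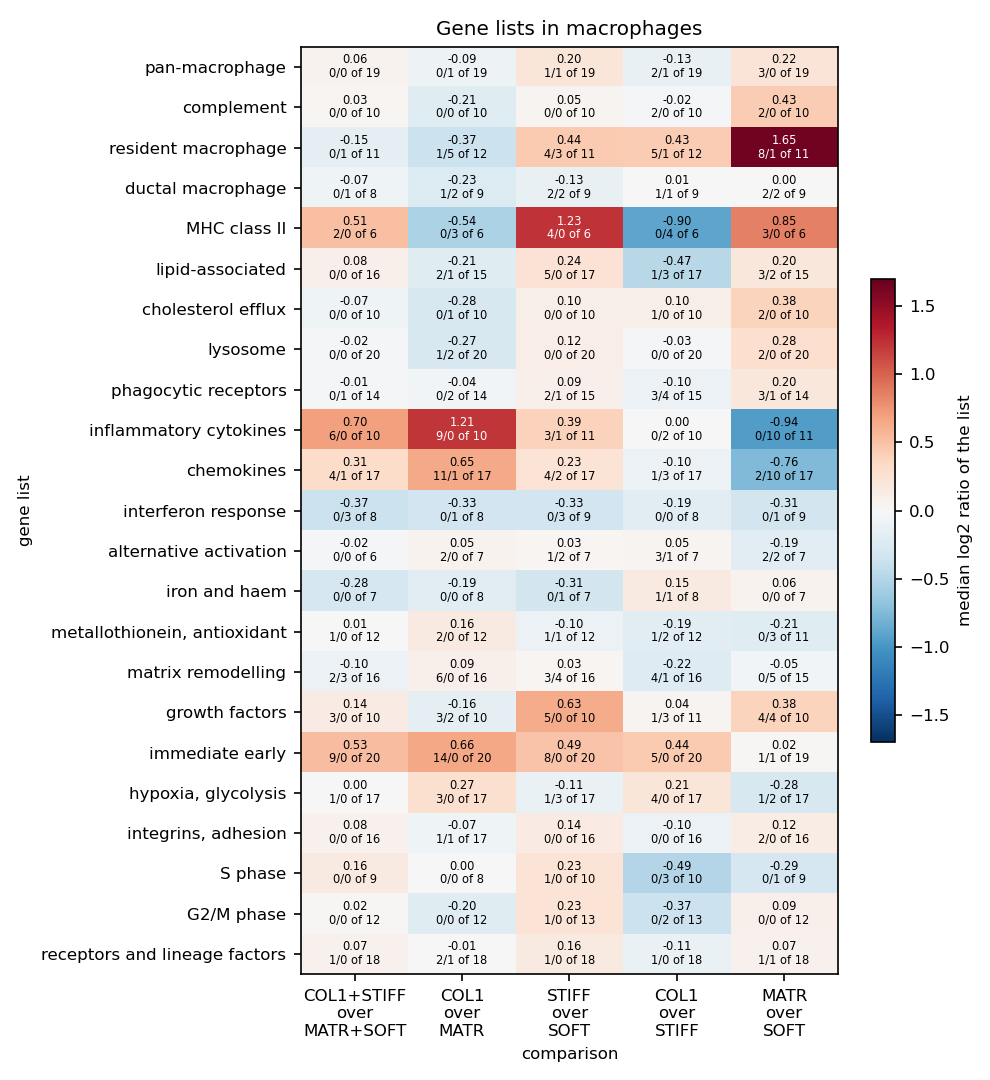
Median log2 ratio of 23 gene lists in macrophages for 5 comparisons, with the number of genes at least 1.5-fold higher and lower of those compared. Inflammatory genes have a median of 1.21 in COL1 over MATR and of -0.94 in MATR over SOFT, and resident macrophage genes of 1.65 in MATR over SOFT.

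Cxcl1, which draws neutrophils, stood at 781 CPM in the COL1 and STIFF pool and 336 CPM in the MATR and SOFT pool, a ratio of 2.32 (2.21 to 2.45). Cxcl2, a related chemokine, stood at 4113 and 2322 CPM, a ratio of 1.77 (1.73 to 1.81). The cytokine Tnf stood at 205 and 93.3 CPM, a ratio of 2.20 (1.99 to 2.43). Both chemokines and Tnf thus lay higher in the pool of the matrices labelled stiff. Nfkbia, which encodes the inhibitor that NF-kappaB itself induces, had a ratio of 1.87 (1.77 to 1.98). Among the immediate early genes, which respond within minutes to many stimuli including tissue dissociation, Klf4 had a ratio of 2.04 (1.77 to 2.35), Atf3 of 1.74 (1.65 to 1.83) and Jun of 1.72 (1.65 to 1.80). Whether dissociation differed between the pools was not tested. Cxcl1 differed in the other kept cells as well, at 97.2 CPM in the COL1 and STIFF pool and 35.3 CPM in the MATR and SOFT pool.

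The collagenase Mmp13 had the largest ratio among these, with 69.5 CPM in the COL1 and STIFF pool and 18.7 CPM in the MATR and SOFT pool (3.71, 3.02 to 4.60). Macrophages of the MATR and SOFT pool were close to the other kept cells of their pool, which stood at 16.9 CPM. Fewer genes were lower in the COL1 and STIFF pool. Of 8 compared interferon-response genes 3 were lower and 0 higher, among them Ifi27l2a at 426 CPM against 717 CPM and Isg15 at 24.6 CPM against 44.7 CPM. Amphiregulin (Areg), Sparc and Id3 were higher as well, but these followed the luminal-led cells. For COL1, STIFF, MATR and SOFT, Areg stood at 143, 142, 31.9 and 54.2 CPM, and without clusters 5 and 6 at 24.0, 23.5, 18.6 and 20.1 CPM.

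Cells from COL1 and MATR were then set side by side, across the pools. Here 4.54% of 5333 genes were higher and 1.91% lower in COL1, and among the 956 at least 2-fold above the other kept cells 7.22% and 6.8%. The inflammatory list was higher almost throughout, with 9 of 10 genes higher, 0 lower and a median log2 ratio of 1.21, and 11 of 17 chemokines were higher and 1 lower (0.65). Cxcl2 stood at 4281 CPM in COL1 and 1394 CPM in MATR, a ratio of 3.07 (2.94 to 3.21), and Cxcl1 at 789 and 179 CPM, a ratio of 4.41 (3.91 to 4.98). Cxcl3 stood at 115 and 6.49 CPM, a ratio of 17.7 (9.95 to 34.9), with a UMI in 27 COL1 cells and 6 MATR cells. The macrophage chemokines Ccl3 (997 and 499.9 CPM) and Ccl6 (984 and 482 CPM) lay the same way, although Ccl6 resembles Ccl9 and the split of their reads is uncertain. The angiogenic factor Vegfa stood at 105 and 32.5 CPM (3.25, 2.42 to 4.41), and Arg1, which breaks down arginine, at 1473 and 544 CPM (2.71, 2.52 to 2.91).

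Genes of tissue residence ran against this. Of 12 compared resident-macrophage genes 5 were lower in COL1 than in MATR (Selenop, Gas6, Maf, Ccl8 and Marco) and only Pf4 was higher. Selenop stood at 534 CPM in COL1 and 1007 CPM in MATR, a ratio of 0.531 (0.491 to 0.574). Mrc1 did not follow, at 108 and 109 CPM (0.995, 0.813 to 1.22). Of 6 class II genes 3 were lower and 0 higher in COL1 (median -0.54), but without clusters 5 and 6 only 1 of 6 was lower (-0.23).

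In cells from STIFF set against SOFT, 3.23% of 5109 genes were higher and 1.33% lower in STIFF, and among the 955 at least 2-fold above the other kept cells 6.91% and 5.24%. The inflammatory list differed less, with 3 genes higher and 1 lower of 11 compared (median 0.39). Tnf stood at 259 CPM in STIFF and 125 CPM in SOFT, a ratio of 2.07 (1.85 to 2.33), and Cxcl1 at 767 and 426 CPM, a ratio of 1.80 (1.69 to 1.92). Cxcl2, at 4105 and 2902 CPM, had a ratio of 1.41 (1.38 to 1.45), and Cxcl3, at 212 and 232 CPM, one of 0.914 (0.822 to 1.02). The chemokines of the first promoters shown therefore did not move as a unit between these cultures. Immediate early genes were higher in 8 of 20 and lower in 0.

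STIFF cells had more of the class II genes, 4 of 6 being higher and 0 lower (median 1.23). H2-Aa stood at 215 CPM in STIFF and 67.0 CPM in SOFT, a ratio of 3.21 (2.78 to 3.72), and H2-Eb1 at 84.2 and 20.8 CPM (4.05, 3.14 to 5.26). Cd74, the chain that guides class II molecules through the cell, stood at 1505 and 789.8 CPM (1.91, 1.82 to 2.0). Few cells carried the signal: the 5 highest cells held 58.5% of H2-Aa UMIs in STIFF and 58.1% in SOFT, and after thinning a UMI was found in 12.6% (7.86 to 18.8) and 6.87% (3.98 to 10.9) of cells. Growth factors were higher in 5 of 10 and lower in 0. Of these Igf1, a factor for epithelial growth, stood at 202 and 82.9 CPM (2.44, 2.12 to 2.80), whereas Areg followed the luminal-led cells. Mmp13 stood at 90.7 and 14.3 CPM (6.36, 4.77 to 8.61), while Mmp9 was lower, at 21.8 CPM in STIFF and 191 CPM in SOFT.

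**Figure D4:**
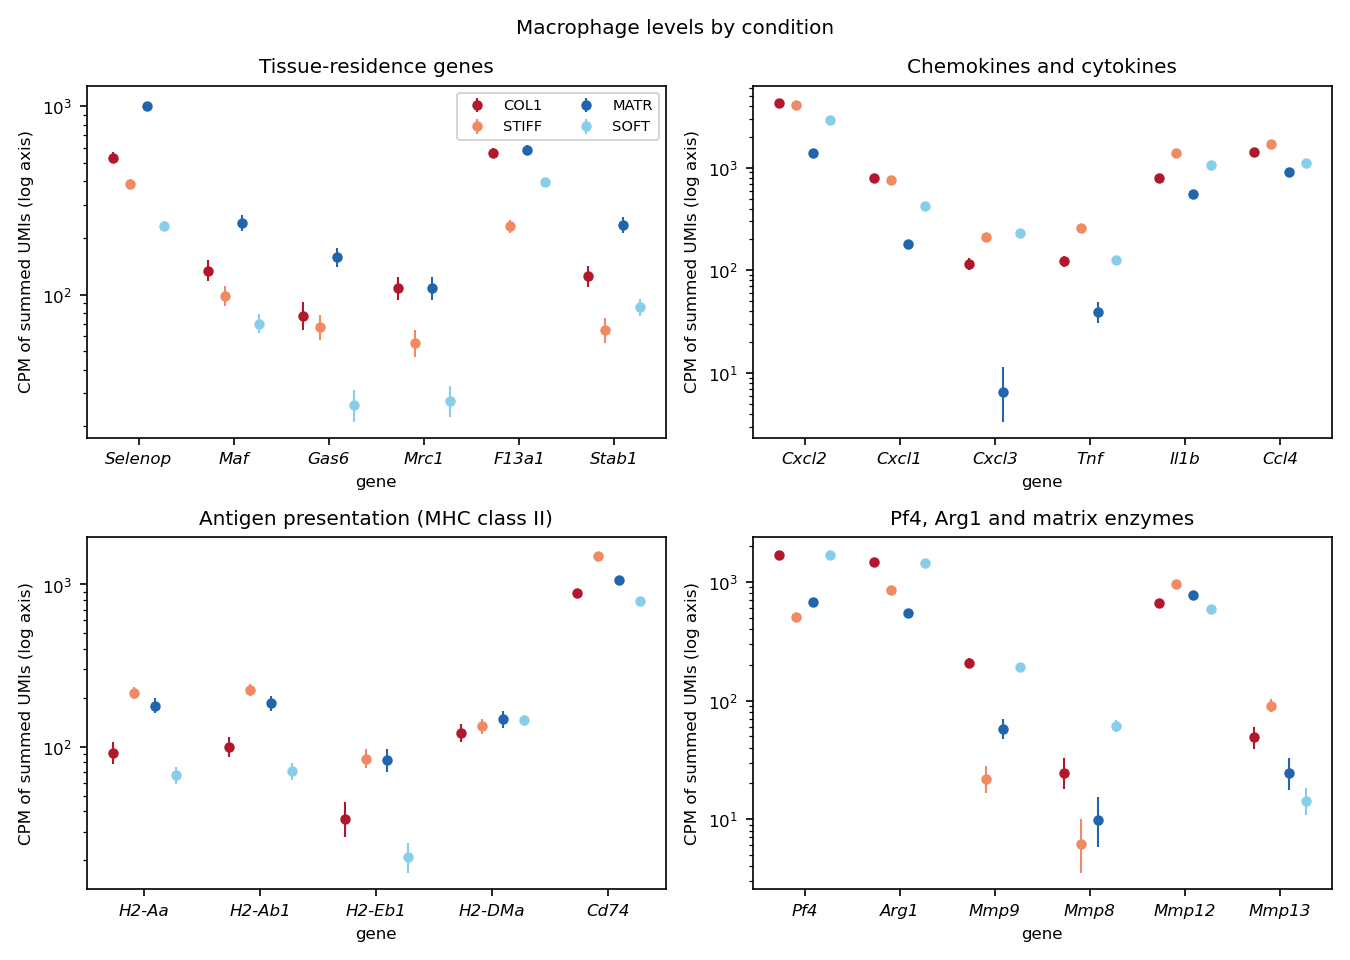
CPM of summed UMIs on a log axis for 23 genes in macrophages of COL1, STIFF, MATR and SOFT, with exact 95% intervals that cover counting error only. The 6 chemokines and cytokines of the upper right panel are lowest in MATR, and Pf4 and Mmp9 are highest in COL1 and SOFT.

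Within a pool the cultures shared their droplets, library and sequencing, so these ratios are free of the difference between channels but depend on the tags. In COL1 over STIFF 2.87% of 5329 genes were higher and 2.2% lower, and among the 965 at least 2-fold above the other kept cells 4.04% and 6.11%. Pf4, a chemokine of platelets and macrophages, stood at 1679.9 CPM in COL1 and 504 CPM in STIFF, a ratio of 3.33 (3.12 to 3.56). Mmp9 stood at 208 and 21.8 CPM, a ratio of 9.54 (7.21 to 12.8), with a UMI in 24.8% (17.5 to 33.3) and 2.52% (0.69 to 6.32) of thinned cells. The acute-phase gene Saa3 stood at 2050.1 and 271 CPM, but the 5 highest cells held 58.6% of its UMIs in COL1 and 71.6% in STIFF. F13a1, a clotting factor subunit made by tissue macrophages, stood at 568 and 230.1 CPM (2.47, 2.23 to 2.73) and Mrc1 at 108 and 55.5 CPM (1.95, 1.56 to 2.43). Of 12 resident-macrophage genes 5 were higher in COL1 and 1 was lower, and of 6 class II genes 4 were lower and 0 higher. COL1 cells also had less of the S-phase genes, of which 3 of 10 were lower and 0 higher (5 of 11 and 0 without clusters 5 and 6). The G2/M-phase genes did not hold this direction. Of 13 compared 2 were lower and 0 higher, but without clusters 5 and 6 0 were lower and 2 higher. Among inflammatory genes Il1b and Tnf were lower in COL1 and 0 of the 10 compared were higher.

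In MATR over SOFT 3.3% of 5159 genes were higher and 2.54% lower, and among the 992 at least 2-fold above the other kept cells 9.78% and 9.68%. The inflammatory list was lower in 10 of 11 genes and higher in 0 (median -0.94), and chemokines were lower in 10 of 17 and higher in 2 (-0.76). Markers of other cells differed too. The neutrophil list summed to 48.7 CPM in MATR and 159 CPM in SOFT, the monocyte list to 143 and 194 CPM, and the list for hormone-receptor-negative luminal cells to 2241 and 1221 CPM. Of compared markers 2 of 2 neutrophil and 2 of 3 monocyte genes were lower in MATR with or without clusters 5 and 6, and 4 of 4 such luminal genes were higher, against 0 of 4 without these clusters. Their part in the differences was not tested. Cxcl2 stood at 1394 CPM in MATR and 2902 CPM in SOFT, and Il1b at 552 and 1071 CPM. Cxcl3 showed the greatest gap, at 6.49 CPM in MATR and 232 CPM in SOFT, so that SOFT was 35.7-fold higher (20.3 to 69.3). After thinning it was found in 2.48% (0.514 to 7.07) of MATR cells and 22.3% (17.1 to 28.2) of SOFT cells, against 0.0385% of the luminal-keratin cells of that pool.

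Tissue-residence genes were the reverse, with 8 of 11 higher in MATR and only Pf4 lower (median 1.65). Selenop stood at 1007 CPM in MATR and 232 CPM in SOFT, a ratio of 4.34 (4.01 to 4.70), and was found in 77.7% (69.2 to 84.8) and 42.1% (35.6 to 48.7) of thinned cells. Mrc1 stood at 109 and 27.3 CPM (3.98, 3.15 to 5.06), Maf, which drives resident-macrophage genes, at 241 and 70.1 CPM (3.43, 2.96 to 4.0), and the scavenger receptor Stab1 at 235 and 85.6 CPM (2.74, 2.38 to 3.17). The Mrc1 signal was spread over many cells, the 5 highest holding 22.9% of its UMIs in MATR and 20.4% in SOFT. Gas6, a ligand for receptors that take up dying cells, stood at 159 and 25.9 CPM, where the other kept cells of the pool stood at 68.4 CPM. Ccl8 and Marco were higher too, but 55.3% of Ccl8 and 83.6% of Marco UMIs in MATR came from 5 cells. H2-Aa stood at 179 and 67.0 CPM (2.67, 2.27 to 3.15), with 65.0% and 58.1% of its UMIs in 5 cells.

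Within-pool ratios had little in common over 859 genes (Pearson's r = 0.03, across genes, which are not independent). These genes were compared in both pools and met the 2-fold bound against the other kept cells, set in the culture where each was higher. A few genes reached 1.5-fold in both. Of these 10 were higher in both COL1 over STIFF and MATR over SOFT, among them Mrc1, Stab1, Pltp and Gpnmb, and 14 were lower in both, among them Tnf, Il1b, Ccl9 and Cxcl3. Another 9 were higher in COL1 and lower in MATR, among them Pf4, Mmp9, Mmp8, Arg1 and Ly6c2, and 6 ran the other way, among them H2-Aa, H2-Ab1, H2-Eb1 and Igf1. COL1 and SOFT thus had the higher levels of Pf4 (1679.9, 504, 674 and 1676 CPM in COL1, STIFF, MATR and SOFT) and of Mmp9 (208, 21.8, 57.9 and 191 CPM). STIFF and MATR had the higher levels of H2-Ab1 (100.0, 224, 185 and 70.4 CPM). If the tags of 1 pool were exchanged, the genes that run the same way and those that run opposite ways would trade places.

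**Figure D5:**
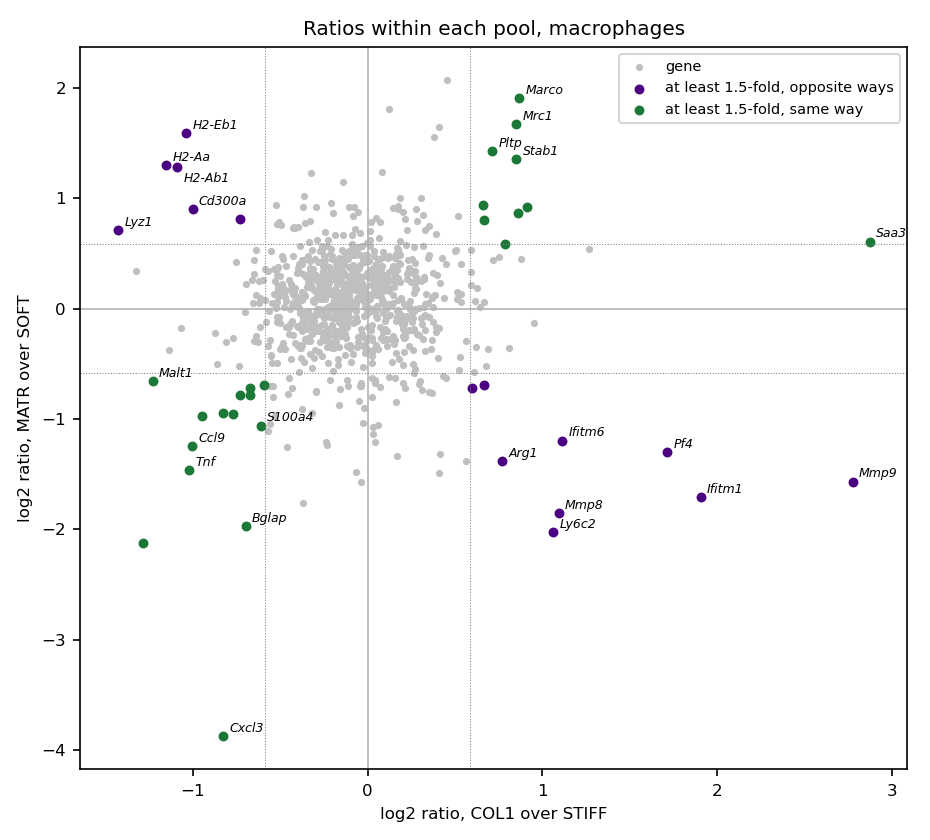
Log2 ratio of CPM + 10 in macrophages for COL1 over STIFF (horizontal) and MATR over SOFT (vertical), 1 point for each of 859 genes, with dotted lines at 1.5-fold. Mmp9 and Pf4 lie at lower right, H2-Aa, H2-Ab1 and H2-Eb1 at upper left, and Mrc1 and Stab1 at upper right.

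The cytokine genes can also be read over all 4 cultures. In COL1, STIFF, MATR and SOFT, Il1b stood at 787, 1406, 552 and 1071 CPM, Il1a, the other interleukin-1 gene, at 247, 254, 90.9 and 289.6 CPM, and Il1rn, which encodes the natural blocker of their receptor, at 177, 224, 70.3 and 145 CPM. MATR was lowest for all 3, and the highest culture was STIFF for Il1b and Il1rn and SOFT for Il1a. Tnf stood at 122, 259, 39.0 and 125 CPM and was found in 22.4% (15.4 to 30.7), 38.4% (30.8 to 46.4), 7.44% (3.46 to 13.7) and 23.2% (17.9 to 29.1) of thinned cells. The luminal-keratin cells gave 6.87% in the COL1 and STIFF pool and 6.13% in the other pool, so the MATR share lay near that of the luminal-keratin cells. Whether these cells made their own Tnf was not tested. The monocyte chemokine Ccl2 stood at 3054, 2392, 1508 and 2554 CPM and was lowest in MATR. The loading factor gene H2-DMa, at 122, 134, 148 and 145 CPM, did not share the spread of H2-Aa, H2-Ab1 and H2-Eb1.

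How even other programmes were depended on the comparison. C1qa stood at 5385, 5703, 7117 and 5425 CPM in COL1, STIFF, MATR and SOFT. It is a gene of the rule, so these levels are a description only. Csf1r, which the rule did not use, stood at 341, 344, 456 and 322 CPM. Trem2, a lipid receptor of macrophages, stood at 589, 634, 729.8 and 559 CPM. Of 20 lysosomal genes 0 reached 1.5-fold in STIFF over SOFT or COL1 over STIFF, while 1 was higher and 2 lower in COL1 over MATR, and 2 were higher and 0 lower in MATR over SOFT (4 and 0 without clusters 5 and 6). Of 19 pan-macrophage genes 3 were higher and 0 lower in MATR over SOFT, and of 10 complement genes 2 were higher and 0 lower. Over all genes 4.54% were higher and 1.91% lower in COL1 over MATR, and 3.3% and 2.54% in MATR over SOFT. Of 16 lipid-associated genes 0 reached 1.5-fold between the pools, where 2.01% of all genes were higher and 0.469% lower. In STIFF over SOFT 5 of 17 were higher and 0 lower, among them Lpl at 90.0 and 35.1 CPM. There 3.23% of all genes were higher and 1.33% lower, so this list was not even between these cultures. The proliferation gene Mki67 stood at 77.2, 100.3, 72.5 and 89.5 CPM.

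Without clusters 5 and 6 many list counts shifted. The inflammatory list had 6 higher and 0 lower between the pools, 9 and 0 for COL1 over MATR, 3 and 1 for STIFF over SOFT, 0 and 2 for COL1 over STIFF and 0 and 10 for MATR over SOFT, the same counts as with these cells. Immediate early genes had 7 of 20 higher between the pools instead of 9, 15 instead of 14 for COL1 over MATR and 7 instead of 8 for STIFF over SOFT. Class II genes had 4 of 6 higher between the pools instead of 2, and growth factors 1 of 9 higher instead of 3 of 10. Lipid-associated genes had 2 of 16 higher between the pools instead of 0. Resident-macrophage genes had 9 of 11 higher for MATR over SOFT instead of 8. Mmp13 stood at 60.8, 93.5, 24.4 and 15.4 CPM in COL1, STIFF, MATR and SOFT without these cells, Pf4 at 1866, 567, 741 and 1781 CPM, and Selenop at 568, 399, 1128 and 234 CPM.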

How the data were processed

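Single-cell RNA was measured in 2 pools of hashtagged organoid cells. The deposited matrices hold raw UMI counts per gene and barcode (32285 genes). Cell Ranger 5.0.0 and the mm10 build are named in the submitters' processing notes, as is Seurat 4.2.0. Each pool was deposited as 2 entries with equal gene counts, and 1 was read.

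Hashtags 1 and 2 were assigned by HTODemux (Seurat 5.3.0, R 4.3.3, quantile 0.99) on barcodes with at least 1000 UMIs and 500 genes. Cells with both tags entered the pool comparison only, and no doublet caller was run. Levels are sums of raw counts over a group's cells, divided by the group total. Ratios carry exact conditional binomial intervals and shares Clopper-Pearson intervals, both at 95%. Log2 ratios used a pseudocount of 10 CPM. Mitochondrial and ribosomal genes, haemoglobins, sex-linked markers and gene models without a gene name were left unnamed. Named genes were the 12 highest and 12 lowest ratios between the pools and the 8 highest and 8 lowest in each tag comparison. They were taken among genes at least 2-fold above other kept cells in the group where they were higher. Markers, the 20 leading genes and members of the 23 pathway lists were named as well. Others mentioned were chosen after their values were seen. Macrophages were clustered without integration (scanpy 1.11.5, 2000 variable genes, 20 principal components, 15 neighbours, Leiden resolution 0.5). Python 3.11.15, numpy 2.4.6, scipy 1.17.1 and pandas 2.3.3 were used, and the ratio calculation was tested on simulated data. Rules, members and gene lists were chosen with earlier results of these data known.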

Additional observations from a re-analysis of the deposited data

Results flagged for a closer look

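Among the 8 highest and 8 lowest ratios within either pool, the following genes lay at least 1.5-fold one way in COL1 over STIFF and at least 1.5-fold the other way in MATR over SOFT. The difference between the ratios was not tested. On the log2(CPM + 10) scale Mmp9 had ratios of 2.78 in COL1 over STIFF and -1.57 in MATR over SOFT, Pf4 of 1.72 and -1.30, and Ifitm1, an interferon-induced membrane protein gene, of 1.91 and -1.71. Ifitm6 had 1.11 and -1.20, the neutrophil collagenase gene Mmp8 1.10 and -1.85, and the monocyte surface gene Ly6c2 1.06 and -2.02. Ifitm genes resemble each other, and the split of their reads is uncertain. H2-Eb1 had -1.04 and 1.59, and Lyz1, which is nearly identical to Lyz2, had -1.43 and 0.71.

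Hashtag 3 was deposited for both pools although each holds only 2 cultures. Its counts in macrophages summed to 1854 for COL1 and STIFF and to 2796 for MATR and SOFT, with a median of 3 per macrophage and 0 in the other kept cells. The highest macrophage had 85 counts among COL1 and STIFF cells and 264 among MATR and SOFT cells.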

How the results depend on the processing

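With 1 culture per condition, no setting could leave out a replicate. No paired analysis was possible because each condition had 1 culture and no result comes from a test. The share of macrophages moved beyond its counting interval when clusters 5 and 6 were left out, to 3.34% in the COL1 and STIFF pool and 4.30% in the MATR and SOFT pool, and in the COL1 and STIFF pool to 3.50% with Krt8 and Krt18 under 10.

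Counts of genes at least 1.5-fold apart moved with the pseudocount and with the filter on low counts. At 1 CPM there were 173 higher and 39 lower between the pools (103 and 24 at 10 CPM), 393 and 226 in COL1 over MATR (242 and 102), 288 and 278 in COL1 over STIFF (153 and 117), 375 and 204 in MATR over SOFT (170 and 131), and 310 higher in STIFF over SOFT (165). With no filter on low counts there were 371 higher and 158 lower in COL1 over MATR, 292 higher in COL1 over STIFF and 259 higher in MATR over SOFT. Median-of-ratios scaling left 109 higher in STIFF over SOFT, and leaving out clusters 5 and 6 gave 178 lower in COL1 over STIFF.

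Without thinning, the share of macrophages with a UMI was 100% for Lyz2 (99.9% thinned), 99.1% for C1qa (97.5%), 98.2% for C1qb (95.2%), 100% for Tyrobp (99.6%), 99.9% for Apoe (99.4%) and 88.9% for Ptprc (45.5%).

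Genes linked to luminal cells changed sign. With Krt8 and Krt18 under 10, the log2 ratio between the pools was -0.048 for Areg, -0.15 for Prlr and -0.068 for Krt19, that of STIFF over SOFT was -0.025 for Krt19, that of COL1 over STIFF was -0.042 for Saa1 and that of MATR over SOFT was 0.13 for Areg. Without clusters 5 and 6, Prlr had -0.013 between the pools and -0.040 in STIFF over SOFT, and Wfdc2 had -0.30 in COL1 over MATR. Of 303 named values past 1.5-fold, 45 were below it without clusters 5 and 6, 32 with the stricter keratin bound, 35 as a mean over cells and 18 under median-of-ratios scaling. Under the relative tag rule 8 of 261 were below it.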

Other observations

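Genes of other programmes varied between the cultures as well. Iron-storage ferritin heavy chain (Fth1) stood at 32448 CPM in macrophages of the COL1 and STIFF pool and 44819.6 CPM in those of the MATR and SOFT pool. Over all compared genes 2.87% were higher and 2.2% lower in COL1 over STIFF, and 3.23% and 1.33% in STIFF over SOFT. Of 17 compared genes of hypoxia and glycolysis 4 were higher and 0 lower in COL1 over STIFF. In STIFF over SOFT 1 of the 17 was higher and 3 were lower. Among them Egln3, an oxygen sensor gene, stood at 88.0, 31.4, 54.6 and 69.9 CPM in COL1, STIFF, MATR and SOFT, whereas the glycolytic gene Ldha stood at 961, 1190.5, 895 and 1085 CPM and was highest in STIFF. Fibronectin (Fn1), a matrix protein, stood at 515, 383, 276 and 700.4 CPM and was highest in SOFT. The bone matrix gene Bglap, whose copy Bglap2 makes the split of reads uncertain, stood at 84.2, 143, 70.9 and 308 CPM.

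The ribonuclease gene Rnase2a stood at 20.7, 3.45, 3.25 and 41.1 CPM in COL1, STIFF, MATR and SOFT, with a UMI in 23, 5, 5 and 58 cells. The alternative activation gene Chil3 was found only in SOFT among singly tagged cells, in 8 of 233 cells. Some chemokine differences rested on few cells, since the Ccl5 UMIs came from 10, 7, 3 and 7 cells.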
